A study of Mus musculus with 3 samples.

Results

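The 45 mouse genes described here carry out or signal DNA repair, and were listed by name across 7 classes of lesion or pathway: interstrand crosslink repair (7 genes), homologous recombination (7), double-strand break signalling (7), nucleotide excision (10), mismatch repair (2), base excision and single-strand break repair (7) and end joining (5). Each gene was looked for among the 20595 UniGene clusters (groups of transcript sequences taken to come from 1 gene) to which the deposited tables assign tags. A cluster was found for 40 of the 45, by exact match of its tags to the gene's transcripts for 36, by RefSeq accession for Brca2 and Atm, and by the deposited description for Lig4 and Ung. The other 5 (Fancc, Fancg, Mre11a, Nbn and Xrcc5, which encodes the Ku80 partner of Xrcc6) were assigned no cluster and were not analysed here. Of the 40, 35 had 15 or more tags summed over the libraries and were tested, among 13812 tested clusters in all.

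Whole skin was taken from 2-month-old male C57BL/6 mice that had been depilated 9 days earlier, which sets hair follicles growing. The day 0 group received no drug. The day 1 and day 2 groups were taken 1 and 2 days after cyclophosphamide given into the peritoneal cavity, at 150 mg/kg per the series text (the sample labels write the unit as mg/km). Each group is 1 library, and the sources used here do not state how many mice went into it, so no ratio below has a replicate check. No untreated skin at days 1 and 2 was analysed here, so the drug and the 1 or 2 further days after depilation cannot be told apart. In whole tissue, fewer cells of a type and less RNA per cell cannot be told apart either.

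Cyclophosphamide is converted in the body to a mustard that alkylates guanine and links the strands of DNA to each other. A crosslink that blocks a replication fork is recognised by Fanconi anaemia proteins, cut free by nucleases of the nucleotide excision pathway, copied past by translesion polymerases and restored by homologous recombination. Single alkylated or lost bases go to base excision repair, bulky lesions to nucleotide excision, copying errors to the mismatch proteins, and broken ends outside replication to end joining. Growing hair follicles hold some of the most rapidly dividing cells of the body, and hair loss is a well-known effect of the drug.

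The measurement was digital gene expression, in which cDNA was cut at CATG and a 21-base tag starting at a CATG was sequenced from each fragment. A transcript ideally gives 1 tag, at the CATG nearest its 3′ end (site 1), so levels need no division by transcript length. Tags that match the assigned gene and no other made up 98.0% of the tags of these genes. The most abundant tag of a gene lay at site 1 in 25 of 40 genes, in the 3′ UTR in 25 and in coding sequence in 10. The tags that carry the results below are shown here, with the CATG in capitals and the 17 bases after it in lower case. They stand for the called genes, for the most abundant gene of most classes and for the genes whose identity or sites need care.
Lig3 site 8: CATGtgcatcttaaaagctgt
Lig3 site 1: CATGtggcctgatgtctgcct
Xrcc3 site 1: CATGcaagtgttctacactga
Fanci site 1: CATGgttcttcgagaggatga
Ercc5 site 1: CATGggaggcaaggctgtgtg
Ddb1 site 1: CATGggaggcttttccctaag
Ddb2 site 1: CATGgccaataaaagcatatc
Polb site 1: CATGtactatagtcaataaac
Apex1 site 1: CATGatgaatgcccgctctaa
Atr site 1: CATGtgcattacctcatacaa
Xrcc6 site 1: CATGgagattacagtctccca
Brca1 site 1: CATGaactcataatcttggac
Brca2 site 28: CATGtggaaatgaccaaaaaa
Msh6 site 2: CATGcatggtagaaaatgaat
Msh6 site 1: CATGgtagaaaatgaatgtga

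On GRCm38, the Lig3 tags lie at chr11:82801983-82802003 (site 8) and chr11:82803747-82803767 (site 1) on the plus strand, both in the 3′ UTR of exon 20, the last. The Xrcc3 tag lies at chr12:111803333-111803353 on the minus strand, in the 3′ UTR of exon 8, and the Polb tag at chr8:22628144-22628164 on the minus strand, in the 3′ UTR of exon 14. Coding sequence holds the Fanci tag (chr7:79449141-79449161, exon 37 of 38), the Ercc5 tag (chr1:44180936-44180956, exon 15 of 15) and the Apex1 tag (chr14:50926823-50926843, exon 5 of 5), all on the plus strand. The Brca2 tag matched no transcript exactly and Brca2 at 1 mismatch, and it ends in 6 A. The tag of Ercc3 is not printed.

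The libraries held 2731787, 2859653 and 2636804 tags assigned to clusters at days 0, 1 and 2. A level is given in CPM, tags per 1000000 after scaling for composition (TMM). A cluster was called when a two-sided exact binomial test of the tags of 2 libraries gave a Benjamini-Hochberg adjusted p of 0.001 or less over all 13812 clusters and the ratio was 2 or more either way. This test compares 2 libraries, not the conditions, and its 95% intervals, given in parentheses after each log2 ratio, cover counting error only.

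Repair genes as a group stayed close to their day 0 level, and single genes stood apart. The summed level of the 40 genes was 1047 CPM at day 0, 1109 at day 1 and 1100 at day 2, a log2 ratio of 0.08 (0.01 to 0.16) at day 1 over day 0 that became -0.05 (-0.12 to 0.03) when libraries were scaled by the tags in the tables. At day 1 over day 0, 1 of 35 tested genes was called, Ercc3 (lower), beside 2.79% of all clusters (1.44% higher and 1.35% lower). At day 2 over day 0, 1 of 35 was called, Lig3 (lower), beside 6.44% of all clusters (3.41% higher and 3.03% lower). At day 2 over day 1, Xrcc3 was called higher and Lig3 lower, 1 of 35 each way, beside 2.9% of all clusters (1.8% higher and 1.1% lower). These shares are too near the background to be a result about repair genes as a group.

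Without regard to the test, 7, 5 and 5 of the 35 genes lay 2-fold or more from the other library in the day 1 over day 0, day 2 over day 0 and day 2 over day 1 comparisons, where 12.6%, 17.3% and 12.7% of all clusters did. The 35 ratios had medians of 0.04, 0.17 and 0.15 on the log2 scale, beside -0.02, 0.01 and -0.02 over all clusters, and the first of these turned to -0.09 when libraries were scaled by the tags in the tables, which moved the median of all clusters to -0.15. Of the 35, 18, 21 and 21 had a log2 ratio above 0, where 48.9%, 50.4% and 49.3% of all clusters did. An unadjusted p under 0.05 was found for 9 of 35 genes in each comparison, and for 30.8%, 36.3% and 29.3% of all clusters. The 3 comparisons share libraries. When a coefficient of variation of 0.2 between animals was assumed in edgeR's exact test, 0 of the 35 genes were called in any comparison at an adjusted p of 0.05.

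**Figure D1:**
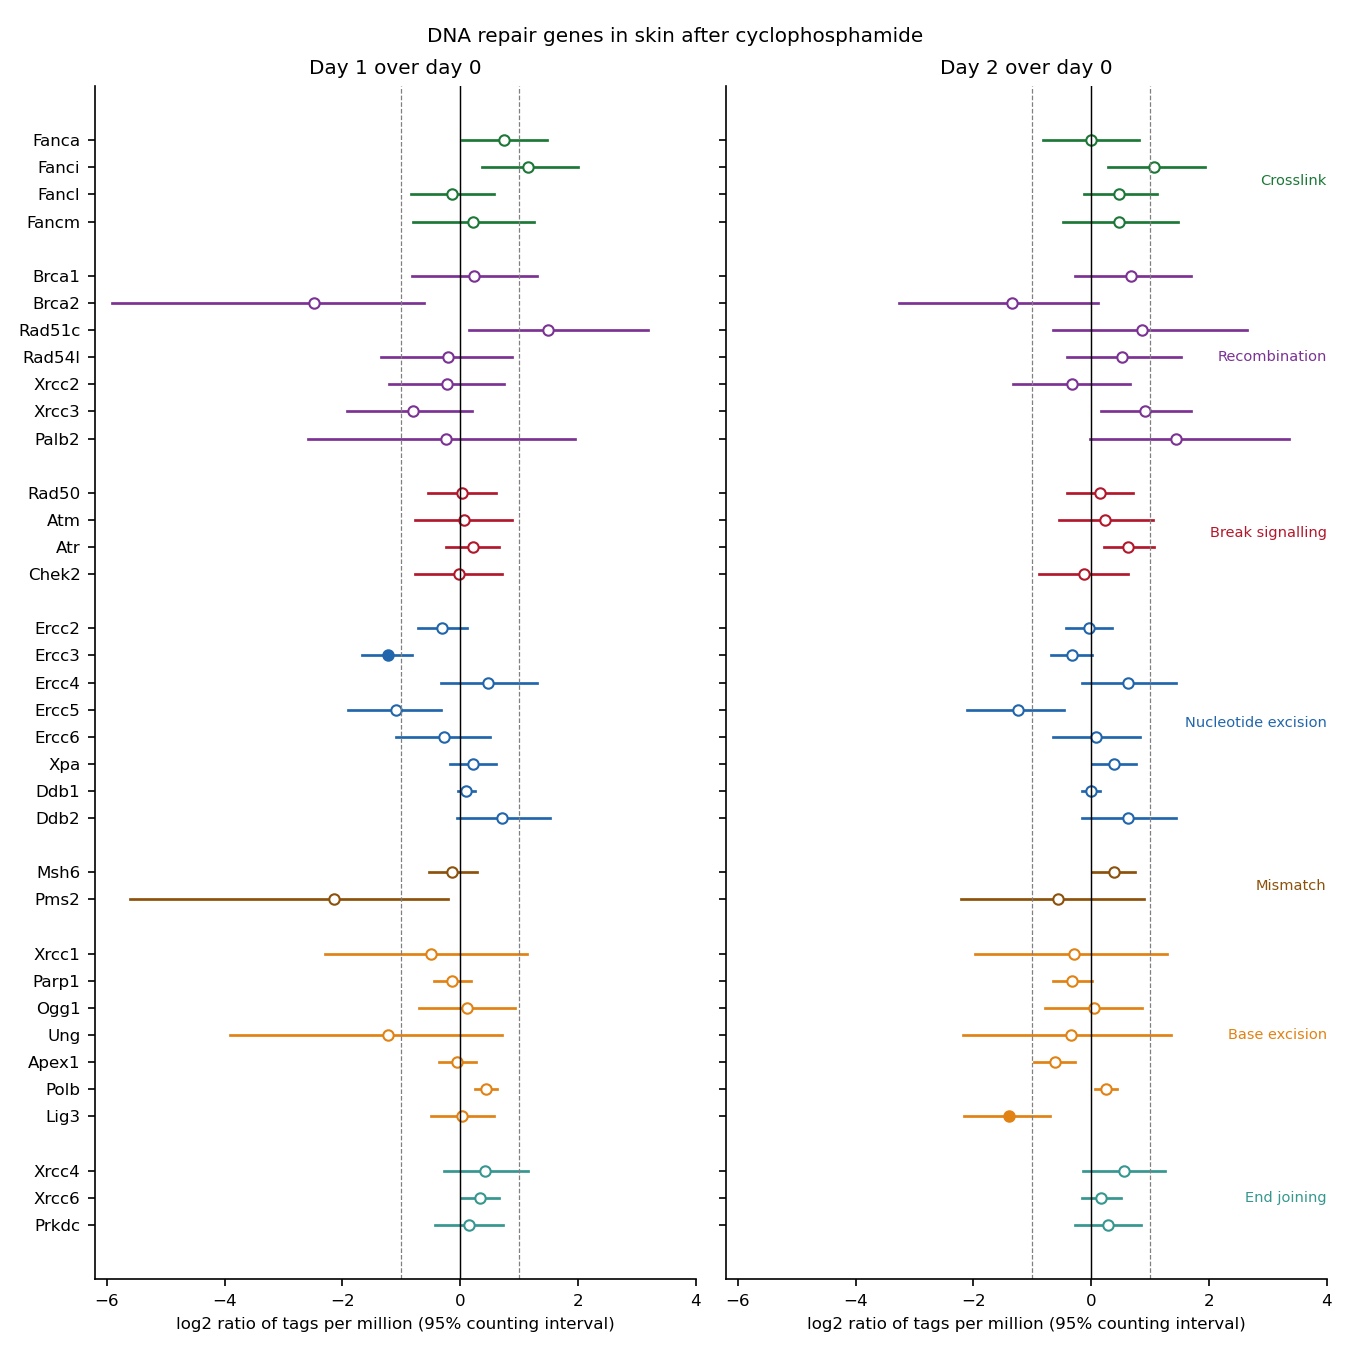
Log2 ratio of each tested repair gene at day 1 (left) and day 2 (right) over day 0, by class, with 95% counting intervals from 1 library per day; filled points were called, and dashed lines mark a 2-fold ratio. Ercc3 (-1.23) is the only filled point at day 1 and Lig3 (-1.39) the only one at day 2, while genes with few tags, such as Brca2 and Pms2, have wide intervals.

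**Figure D2:**
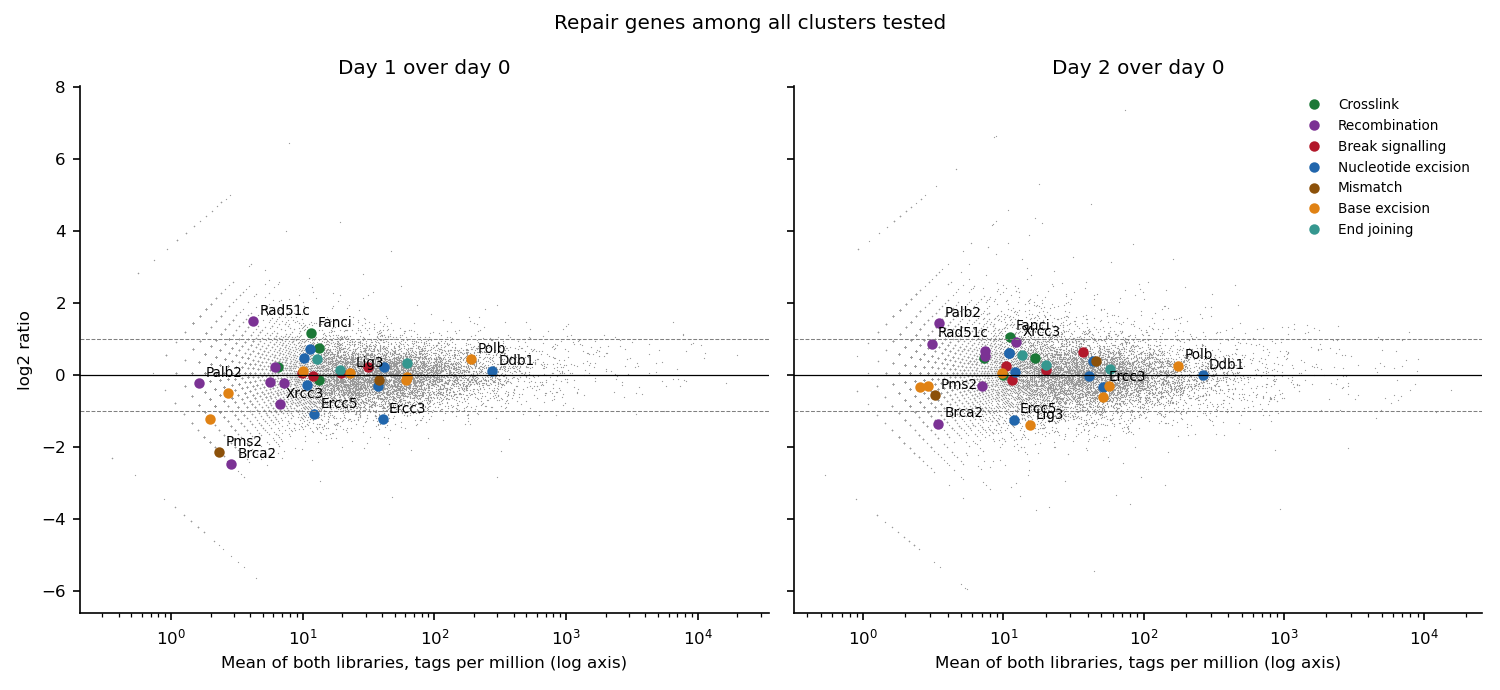
Log2 ratio against the mean level of both libraries (log axis, CPM) for all 13812 tested clusters (grey) and the 35 repair genes (coloured by class). The repair genes lie within the grey cloud in both panels, with medians of 0.04 and 0.17, and those below 10 CPM scatter most.

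In the crosslink class, the 4 tested genes had median log2 ratios of 0.48 at day 1 and 0.47 at day 2, and 0 of 4 were called. Fanci encodes the partner with which Fancd2 forms the clamp that is ubiquitinated at a crosslink. It had 20 tags at day 0, 43 at day 1 and 41 at day 2, which is 7.11, 16.0 and 15.1 CPM. Both treated libraries were higher than day 0 and close to each other. The log2 ratios were 1.15 (0.37 to 2.01, adjusted p = 0.0167, exact test) at day 1 and 1.06 (0.28 to 1.93, adjusted p = 0.0271) at day 2, past 2-fold but short of the threshold on p.

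Fanca, a core complex subunit, had 28, 45 and 27 tags, so that only day 1 stood above the others (0.74, 0.04 to 1.48, adjusted p = 0.134, exact test). Fancl, the ubiquitin ligase of the core complex, had 39, 34 and 53 tags and was highest at day 2. Its pair of main CATG sites ran differently, with 28, 17 and 44 tags at site 1 and 11, 15 and 9 at site 2. Fancm, the translocase that docks the core complex on DNA, had 17, 19 and 23 tags, with intervals that include 0 in every comparison. Fancd2 had 2, 3 and 0 tags, too few to test. Summed over the 5 genes found, the class went from 37.7 to 53.5 to 52.9 CPM, a log2 ratio of 0.51 (0.13 to 0.88) at day 1 and 0.49 (0.12 to 0.87) at day 2.

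Recombination genes were scarce in these libraries, at 32.0 to 51.4 CPM for 7 genes together, and spread more widely than any other class, from -2.48 to 1.49 at day 1 over day 0. Xrcc3, which acts in the repair of breaks by recombination, had 24 tags at day 0, 13 at day 1 and 44 at day 2. Day 1 was lowest and day 2 highest, at 4.83 and 16.2 CPM. The rise from day 1 to day 2 was 3.35-fold on the linear scale (log2 ratio 1.70, 0.82 to 2.76, adjusted p = 0.00062, exact test). Against day 0 it passed the threshold at neither time, at -0.80 (-1.92 to 0.21) and 0.91 (0.17 to 1.70). All of its tags came from 1 site.

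Rad51c, which works with Xrcc3 in a complex, had 6, 17 and 11 tags, and day 0 was lowest (1.49 at day 1, 0.16 to 3.20, adjusted p = 0.101, exact test). Brca2, which acts on resected single-stranded DNA during recombination, had 14, 2 and 5 tags, and day 0 was highest (-2.48 at day 1, -5.92 to -0.62, adjusted p = 0.0283). Of these Brca2 tags, 90.5% were the sequence printed above that matched no transcript exactly, so the identity of this value is uncertain.

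Brca1, which works upstream of Brca2 and in checkpoint control, had 16, 18 and 25 tags, highest at day 2 but with an interval that includes 0 (0.67, -0.27 to 1.69). Rad54l, a motor protein that acts in strand invasion, had 17, 14 and 24 tags, but 8, 9 and 11 of the tag that matches it exactly. The rest were tags that end in 11 A and match no transcript, so its value is uncertain. Palb2, the bridge between Brca1 and Brca2, had 5, 4 and 14 tags. Xrcc2 had 22, 18 and 17. Of the 7 genes, 5 had a log2 ratio above 0 at day 2 over day 0. The class sum was 37.0, 32.0 and 51.4 CPM, with log2 ratios of -0.21 (-0.64 to 0.22) at day 1 over day 0, 0.48 (0.10 to 0.86) at day 2 over day 0 and 0.69 (0.29 to 1.09) at day 2 over day 1. Xrcc3 gave 24.5% of the tags of the class. At day 2 over day 1, 5 of 7 ratios lay above 0, but beside Xrcc3 only Palb2 had an interval above 0 (1.67, 0.12 to 3.85).

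The sensors and kinases of break signalling varied little. Atr, the kinase that responds to single-stranded DNA at stalled forks, had 81, 90 and 122 tags, or 28.8, 33.5 and 44.8 CPM, and day 2 was the highest of the 3. Its log2 ratio at day 2 over day 0 was 0.63 (0.22 to 1.06, adjusted p = 0.0109, exact test), under 2-fold and not called. Atm, the kinase that responds to double-strand breaks, had 27, 27 and 31 tags, with a main tag that matches no GENCODE transcript and a name that rests on its RefSeq accession.

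Rad50, the tethering subunit of the complex with Mre11a and Nbn, had 54, 53 and 58 tags, near the same level on each day. Chek2, the kinase downstream of Atm, had 34, 32 and 30 tags, also nearly level. Chek1, the kinase downstream of Atr, had 6, 4 and 2 tags and was not tested. For the 4 tested genes the largest ratio in either direction at day 1 over day 0 was 0.22, and the class sum of 71.8, 76.6 and 89.3 CPM gave 0.09 (-0.19 to 0.38) at day 1 and 0.31 (0.04 to 0.59) at day 2.

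Nucleotide excision genes had the highest summed level of the 7 classes, 445.4, 431.3 and 445.6 CPM, of which Ddb1 gave 61.3% of the tags. Ercc3, the XPB helicase subunit of TFIIH that opens DNA around a lesion and at promoters, was the gene called at day 1. It had 160 tags at day 0, 65 at day 1 and 123 at day 2, or 56.9, 24.2 and 45.2 CPM. Day 1 was the low library, and day 2 lay between the others. The fall at day 1 was 2.35-fold (log2 ratio -1.23, -1.67 to -0.81, adjusted p = 3.5e-08, exact test), and the call held in each of 8 alternative treatments of the counts (adjusted p 5.6e-10 to 5.2e-08). From day 1 to day 2 the log2 ratio was 0.90 (0.46 to 1.36, adjusted p = 0.00045), under 2-fold, and day 2 over day 0 was -0.33 (-0.68 to 0.02). Of its tags, 97.7% came from site 1, in the coding part of the last exon, 15.

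Ercc2, the XPD helicase of the same TFIIH complex, had 116, 90 and 110 tags and ratios of -0.30 (-0.71 to 0.11) and -0.03 (-0.42 to 0.36). Both TFIIH helicases were lowest at day 1, but the interval of Ercc2 includes 0 and that of Ercc3 does not. Whether the genes differ from each other was not tested.

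Ercc5, the XPG nuclease that cuts 3′ of a lesion, had 47, 21 and 19 tags. Day 0 was the high library and the treated pair were alike. The log2 ratios were -1.08 (-1.91 to -0.33, adjusted p = 0.0216, exact test) at day 1 and -1.24 (-2.11 to -0.46, adjusted p = 0.00622) at day 2, past 2-fold but not called. Ercc4, the XPF nuclease that cuts 5′ of a lesion and also unhooks crosslinks, had 24, 32 and 36 tags, with intervals that include 0. Ercc1, its partner, had 0, 2 and 0 tags and was not tested.

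Among the damage sensors, Ddb1, a subunit of the ultraviolet damage sensor and of a family of ubiquitin ligases, had 742, 762 and 718 tags. This was the best measured of the repair genes, and its level was nearly the same on each day (0.10, -0.04 to 0.25 at day 1). Ddb2, the subunit that binds the lesion and a p53 target in human cells, had 24, 38 and 36 tags, and day 0 was lowest (0.72, -0.05 to 1.53 at day 1, adjusted p = 0.201, exact test). Its site 1 tag had 17, 34 and 36 copies (1.04, 0.18 to 2.00 at day 1 and 1.11, 0.26 to 2.05 at day 2) and its site 2 tag 7, 2 and 0.

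Xpc, the sensor of lesions across the genome, had 0, 5 and 2 tags and was not tested. Xpa, which verifies the damage, had 107, 119 and 135 tags, highest at day 2 (0.38, 0.01 to 0.76, adjusted p = 0.13, exact test) and not called. Ercc6, the CSB protein of transcription-coupled repair, had 33, 26 and 34 tags.

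The mismatch class holds Msh6, a subunit of the complex that recognises mispairs, and Pms2, a subunit of the nuclease that cuts the new strand. Msh6 had 112, 98 and 141 tags, highest at day 2, with a log2 ratio of 0.51 (0.13 to 0.89, adjusted p = 0.0438, exact test) at day 2 over day 1. Its tags came mainly from a pair of CATG sites that overlap (the printed site 2 tag reads CATGCATG in its first 8 bases, so that site 1 begins 4 bases further on). Site 2 had 68, 62 and 74 tags and site 1 had 36, 28 and 59, and both were highest at day 2. Pms2 had 11, 2 and 7 tags, with an interval at day 1 of -5.61 to -0.20, and was not called (adjusted p = 0.104).

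Base excision and single-strand break repair held the gene called at day 2. Lig3, the ligase that seals single-strand breaks together with Xrcc1 and also serves mitochondrial DNA, had 63 tags at day 0, 62 at day 1 and 23 at day 2, or 22.4, 23.1 and 8.45 CPM. Days 0 and 1 were alike and day 2 was low. The fall at day 2 was 2.65-fold against day 0 (log2 ratio -1.39, -2.16 to -0.70, adjusted p = 0.00028, exact test) and 2.73-fold against day 1 (-1.43, -2.21 to -0.74, adjusted p = 0.00026).

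The Lig3 tags at its main pair of sites did not follow the same days. Site 8, the more abundant, had 32, 47 and 10 tags, low at day 2 (-1.58, -2.82 to -0.57 over day 0). Site 1 had 24, 11 and 9 tags, low from day 1 on (-1.32, -2.66 to -0.21 over day 0). Both were below day 0 at day 2, but with site 1 alone the call was lost (-1.32, adjusted p = 0.058 against day 0 and -0.29, adjusted p = 0.97 against day 1). Over 8 alternatives the adjusted p ran from 0.00024 to 0.058 against day 0 (7 calls) and from 0.00022 to 0.97 against day 1 (5 calls).

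Polb, the polymerase that fills the gap after a base is removed, had 452, 587 and 523 tags, or 160.7, 218.3 and 192.1 CPM, and was highest at day 1. Day 1 was 1.36-fold day 0 (log2 ratio 0.44, 0.26 to 0.62, adjusted p = 1.4e-05, exact test), past the threshold on p but not on fold. Apex1, the nuclease that cuts at a lost base, had 176, 163 and 111 tags, and day 2 was the low library (-0.62, -0.97 to -0.27, adjusted p = 0.00258 over day 0), under 2-fold and not called. The gap-filling polymerase and the nuclease before it in the pathway thus had ratios of opposite sign at day 2.

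Parp1, the sensor of single-strand breaks, had 178, 156 and 138 tags, lowest at day 2 with intervals that include 0 against day 0 (-0.32, -0.65 to 0.01 at day 2). Its site 1 had 118, 113 and 76 tags and its site 2 had 60, 43 and 60, so that only site 1 was low at day 2. Xrcc1, the scaffold that binds Lig3 and Polb, had 9, 6 and 7 tags. Ogg1, the glycosylase for oxidised guanine, had 27, 28 and 27 tags, level on all days, and Ung, the uracil glycosylase, had 8, 3 and 6, all of a tag that matches no transcript and was assigned by description. The class sum was 324.5, 373.7 and 306.7 CPM, at 0.20 (0.07 to 0.33) at day 1 and -0.08 (-0.22 to 0.06) at day 2 over day 0, and Polb gave 56.7% of it. Without Polb the ratios were -0.08 and -0.52.

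End joining genes lay slightly above day 0 in both treated libraries, and 0 of 3 were called. Xrcc6, the Ku70 subunit that holds broken ends, had 153, 185 and 167 tags (0.34, 0.02 to 0.66, adjusted p = 0.126, exact test, at day 1). Prkdc, the catalytic kinase recruited by Ku, had 51, 54 and 60 tags. Xrcc4, the partner of Lig4 in sealing the ends, had 31, 40 and 44 tags. All 3 had their lowest level at day 0, with day 2 intervals that include 0. Lig4 had 9, 3 and 0 tags, too few to test. The class sum was 86.7, 104.9 and 99.5 CPM, or 0.27 (0.02 to 0.53) at day 1 and 0.20 (-0.06 to 0.45) at day 2.

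**Figure D3:**
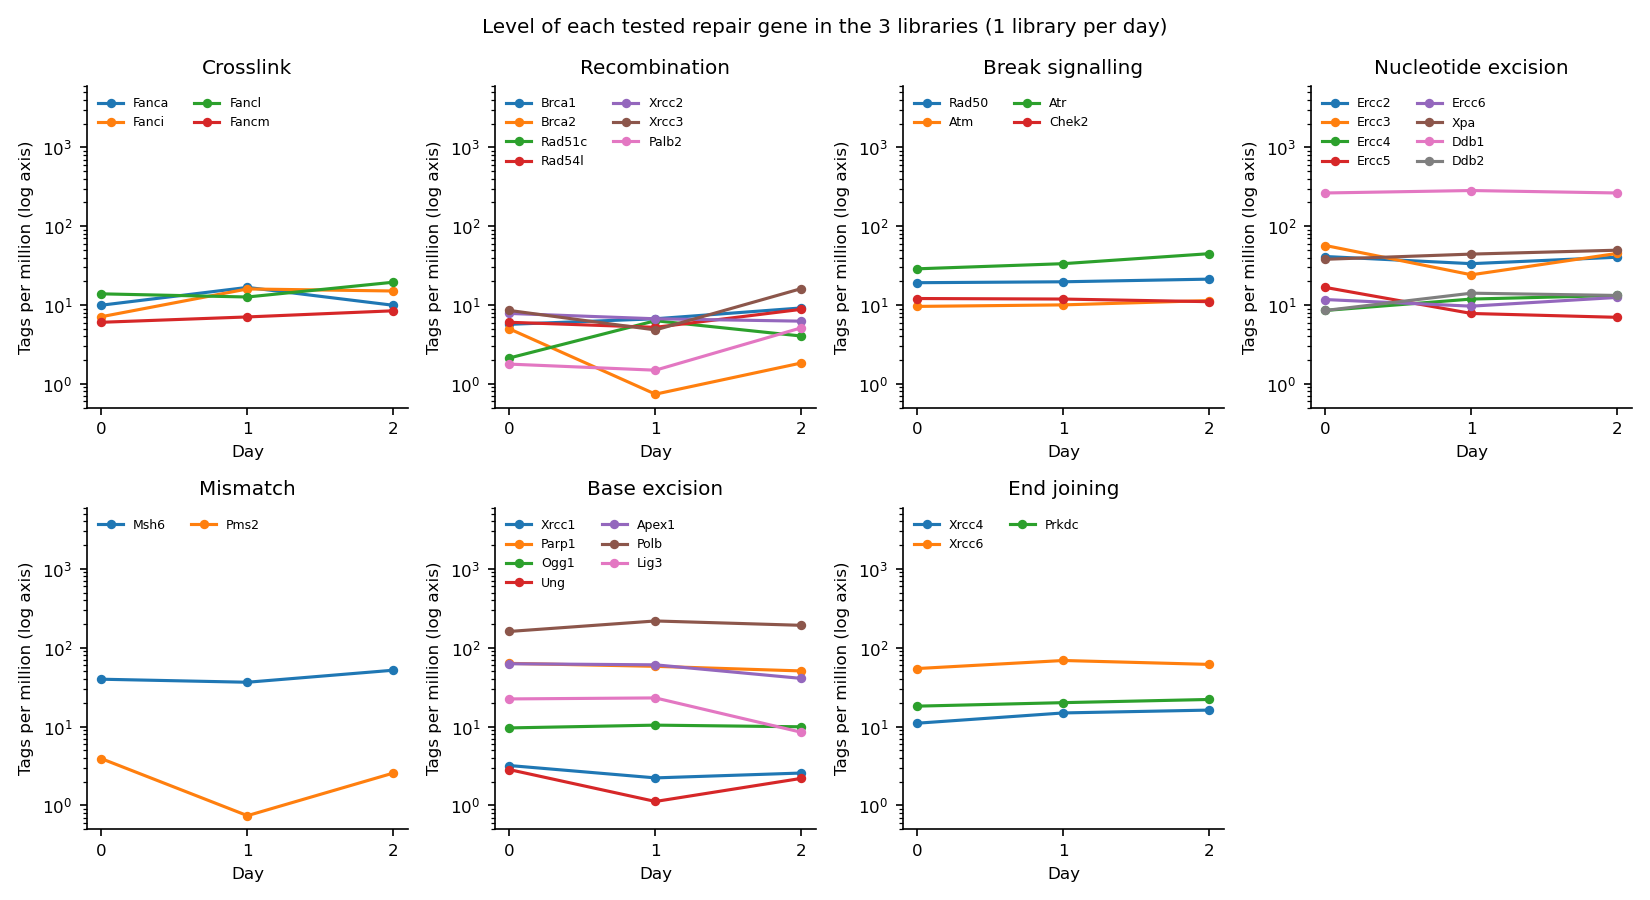
Level of each tested repair gene (CPM, log axis) in the single library of days 0, 1 and 2, one panel per class. Ercc3 dips at day 1, Lig3 drops at day 2, and Xrcc3 is lowest at day 1 and highest at day 2. Ddb1 and Polb lie above every other gene shown on each day.

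**Figure D4:**
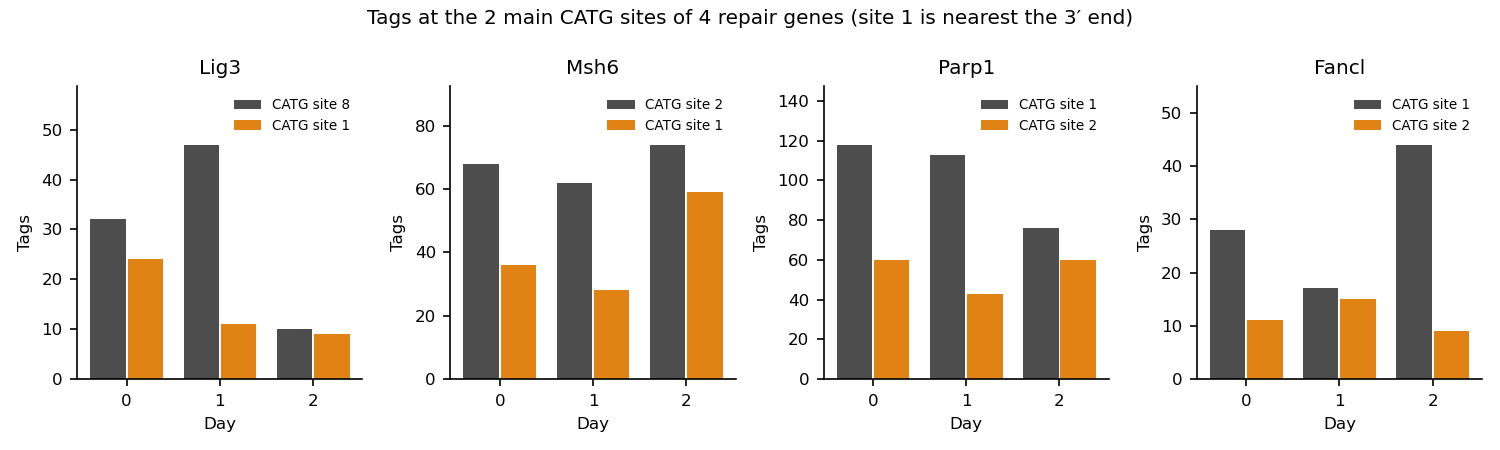
Tags counted in each library at the pair of main CATG sites of Lig3, Msh6, Parp1 and Fancl. At day 2, both Lig3 sites are low (10 and 9 tags) and both Msh6 sites are at their highest, while in Parp1 and Fancl the sites differ.

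Set side by side, the class sums lay within small distances of day 0, and differences between classes were not tested. A class sum covers only the genes listed here. Further repair genes of the same classes, summed below, had a sum of opposite sign for crosslink repair, where Faap20 gave 38.9% of the tags. The summed crosslink, base excision and end joining levels had intervals above 0 at day 1, the crosslink, recombination and break signalling levels had them at day 2, and the nucleotide excision level had an interval that includes 0 at both times (-0.05, -0.16 to 0.07, and 0.00, -0.11 to 0.12). Base excision was below day 1 at day 2 (-0.28, -0.42 to -0.15). Recombination and mismatch sums were higher at day 2 than at day 1, at 0.69 (0.29 to 1.09) and 0.55 (0.17 to 0.93). The day 1 values depended on the scaling. By the tags in the tables, the intervals of base excision (0.07, -0.06 to 0.20) and end joining (0.14, -0.11 to 0.40) included 0. That of crosslink repair ended barely above 0 (0.38, 0.00 to 0.75 after rounding). That of nucleotide excision lay below 0 (-0.18, -0.29 to -0.06), and break signalling turned from 0.09 to -0.04. The median of the tested members lay below 0 where the sum lay above it for base excision at day 1 (-0.05 beside 0.20) and for mismatch at day 2 (-0.09 beside 0.31), where Polb and Msh6 hold most of the tags.

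**Figure D5:**
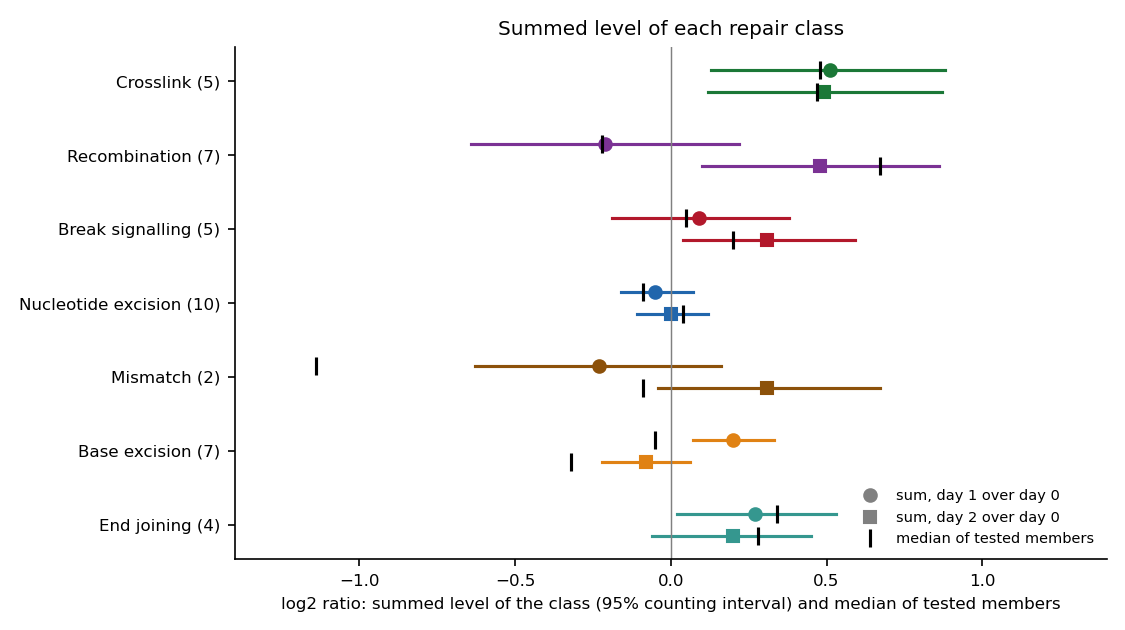
Log2 ratio of the summed level of each class (circles, day 1 over day 0; squares, day 2 over day 0) with 95% counting intervals, and the median of its tested members (black ticks), with the number of genes summed in parentheses. Crosslink sums lie at 0.51 and 0.49, nucleotide excision sums at -0.05 and 0.00, and the tick for mismatch at day 1 (-1.14) is the midpoint of Msh6 and Pms2.

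By order of levels, day 1 was the lowest of the 3 days for 12 of the 35 genes (34.3%, beside 30.4% of all clusters) and the highest for 9 (25.7%, beside 4146 of the 13812 clusters). Another 9 genes had levels in increasing order from day 0 to day 1 to day 2 (25.7%, beside 18.8%), namely Atm, Atr, Brca1, Ercc4, Fancm, Prkdc, Rad50, Xpa and Xrcc4. In decreasing order came 5 genes (14.3%, beside 20.7%), namely Apex1, Chek2, Ercc5, Parp1 and Xrcc2. An order ignores counting error, and most of these genes changed by less than their intervals.

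A further 90 repair genes from textbook lists of the same classes and of translesion synthesis were looked up, of which 78 had a cluster and 68 were tested. At day 1 over day 0, 0 were called higher and 2 lower. Cetn2, the centrin that stabilises Xpc and also a centriole protein, had 251, 111 and 90 tags, high at day 0 alone, and fell by 1.11 (-1.45 to -0.78, adjusted p = 8.9e-11, exact test) on the log2 scale. Atrip, the partner through which Atr is recruited, had 40, 9 and 20 tags, lowest at day 1 (-2.03, -3.32 to -1.02, adjusted p = 0.0002). Of the 3 clusters found for Atrip, these values are those of 1.

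At day 2 over day 0, 2 were called higher and 1 lower, the last again Cetn2 (-1.43, -1.80 to -1.08, adjusted p = 4.3e-16, exact test). Timeless, of the fork protection complex, had 40, 39 and 82 tags, high at day 2 alone (1.07, 0.52 to 1.67, adjusted p = 0.00061). Polk, a translesion polymerase, had 14, 40 and 50 tags (1.85, 1.01 to 2.85, adjusted p = 3.6e-05). Its cluster was assigned by description, and with tags that match 1 gene exactly the call was lost (1.48, adjusted p = 0.28, in a range of 2.2e-05 to 0.28 over 8 alternatives). Rev3l, the catalytic subunit of translesion polymerase zeta, was called higher at day 2 over day 1, with 44, 25 and 74 tags and day 1 lowest (1.53, 0.88 to 2.26, adjusted p = 1.8e-05).

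Some genes of the list passed the threshold on p but not on fold, and those given here were named after their values were seen. At day 1 over day 0 they included Faap20, a Fanconi core complex subunit, with 320, 163 and 177 tags (-0.91, -1.19 to -0.63), Fen1, the flap nuclease of base excision and replication, with 199, 305 and 240 tags (0.68, 0.42 to 0.95), and Rad23b, the partner of Xpc, with 515, 651 and 575 tags (0.40, 0.23 to 0.57). Faap20 did so again at day 2 over day 0. Fen1 and Rad23b were thus highest at day 1, and Faap20 at day 0.

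In classes with no call, large ratios belonged to Faap24 (56, 22 and 26 tags) and Usp1 (14, 6 and 11, from tags it shares with other genes) for crosslinks, Rad51d (58, 85 and 79) for recombination, and Mlh3 (46, 26 and 31) and Exo1 (19, 21 and 9) for mismatches. They were Neil1 (23, 18 and 10) and Mbd4 (16, 10 and 9) for base excision, and Poll (35, 65 and 36) and Nhej1 (26, 22 and 29) for end joining. The 68 genes had a median log2 ratio of -0.07 at day 1 and -0.03 at day 2, and a summed level of 1736, 1727 and 1706 CPM for the 78 found. Summed by class over day 0, these crosslink genes were -0.53 (-0.71 to -0.36) at day 1 and -0.34 (-0.50 to -0.17) at day 2. Both sums were opposite in sign to those of the listed members, but Faap20 gave 38.9% of these crosslink tags. The 10 genes had median ratios of -0.09 and -0.12, with 5 above 0 at day 1 and 4 at day 2. Break signalling gave -0.17 (-0.31 to -0.03) and -0.06 (-0.19 to 0.08), and recombination 0.25 (0.09 to 0.41) and 0.04 (-0.13 to 0.20). Recombination at day 2 over day 1 was -0.21 (-0.37 to -0.06), also opposite. At day 1, the sums of base excision (0.24, 0.08 to 0.41) and end joining (0.44, 0.07 to 0.81) had the members' sign. Fen1 gave 41.4% of these base excision tags. Of the 9 base excision genes tested, 4 lay above 0 at day 1 and 5 below (median -0.01).

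Depth set what could be seen. At the tag counts of day 0, a repair gene at the median of the 35 would have needed a log2 ratio of 1.18 at day 1, or 1.17 at day 2, to be called higher. For 6 of the 35, even a loss of every tag would not have been called. The smallest copy number listed for a tag is 2, so a gene listed at 0 in a library, such as Ercc1 or Fancd2, need not have had 0 tags.

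The makeup of the skin samples also moved between libraries. Keratinocyte markers were measured for 6 of 6 genes at 11642, 15484 and 14619 CPM in sum, with 0 called at days 1 and 2 over day 0. Krt10 gave 59.1% of their tags. At both times 5 of the 6 lay above day 0, but Trp63 lay below it (-0.17, -0.29 to -0.06, and -0.13, -0.25 to -0.02). Muscle markers (7 of 7) summed to 8470, 13003 and 18002 CPM, with 3 called higher at day 1 and 5 at day 2 over day 0. Hair follicle markers (7 of 7) summed to 28993, 41197 and 17191 CPM, with 3 of 6 tested called lower at day 2. Their largest sum was thus at day 1 and their smallest at day 2, but Krt25 gave 54.7% of their tags. Of the 6 tested, 3 were above day 0 at day 1 and 3 below it. Those below were Krt35 (-0.47, -0.54 to -0.40), Msx2 (-0.39, -0.51 to -0.27) and Hoxc13 (-0.36, -0.55 to -0.18).

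Macrophage markers (5 of 7) summed to 176, 170 and 380 CPM with 3 called higher at day 2, fibroblast markers (6 of 6) to 2950, 1876 and 3268 CPM with 2 higher at day 2, and erythroid markers (3 of 5) to 55.1, 65.8 and 9.2 CPM with 3 lower at day 2. At day 2 over day 0, 4 fibroblast markers lay above 0 and 2 below. Col1a2, with 41.7% of the fibroblast tags, was below (-0.45, -0.52 to -0.38). At day 1 over day 0, 2 macrophage markers lay above 0 and 3 below. Fcgr1 was called higher (1.47, 0.73 to 2.32), while Adgre1 was lower (-0.89, -1.47 to -0.35). Adipocyte markers (4 of 4) summed to 3584, 2384 and 1865 CPM, and endothelial (4 of 4) to 64.3, 62.1 and 98.8. Melanocyte markers (4 of 4) summed to 129.0, 246.1 and 293.9, and T cell markers (2 of 5) to 3.9, 3.0 and 1.8. Fabp4 gave 92.6% of the adipocyte tags, and Lep was called higher at day 2 over day 0 (1.66, 0.88 to 2.57), against the sum. Pmel gave 80.8% of the melanocyte tags and was called higher at both days, while Tyr lay below day 0 (-0.50 and -0.33) with intervals that include 0. The 15 proliferation genes were measured because many recombination, mismatch and crosslink genes are expressed in dividing cells. They summed to 1062, 1024 and 1114 CPM, and 0 of 14 tested were called. This sum hides members of opposite sign. At day 1 over day 0, 5 of the 14 lay above 0 and 9 below. Nusap1 was lower (-0.92, adjusted p = 3.6e-05, exact test). Plk1 (0.85, adjusted p = 0.00063) and Cdk1 (0.36, adjusted p = 0.00031) were higher. All of these ratios were under 2-fold. Lowest at day 0 were the keratinocyte, muscle and melanocyte sums. Lowest at day 1 were the fibroblast, macrophage, endothelial and proliferation sums. Of these, only fibroblast had an interval below 0 at day 1 over day 0 (-0.65, -0.70 to -0.60). Macrophage (-0.05, -0.24 to 0.14), endothelial (-0.05, -0.36 to 0.26) and proliferation (-0.05, -0.13 to 0.02) intervals included 0. Lowest at day 2 were the hair follicle, erythroid, adipocyte and T cell sums, of which the T cell interval at day 2 over day 0 included 0 (-1.09, -2.97 to 0.55). The part of these shifts in the repair values was not tested.

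What the genes share in sequence was looked at in RefSeq promoter windows of 250 bases before to 50 after the start, which were matched for 36 of the 45 genes. The E2F motif, searched on both strands as TTTGGCGC, TTTCCCGC, TTTGCCGC or TTTCGCGC, occurred in 6 of 36 (16.7%), beside 2.6% of 27025 genes. Those 6 were Brca2, Chek2, Fancg, Msh6, Rad51c and Xrcc6. The CCAAT box, searched as CCAAT, occurred in 21 of 36 (58.3%), beside 41.1% of all genes. The cell cycle homology region, searched as TTTGAA, occurred in 1 of 36 (Ercc5), beside 20.2%. A match is a description of these letters in this window, and the motifs were chosen with the results known.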

How the data were processed

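Per the labels' protocols, polyadenylated RNA was turned into cDNA on oligo(dT) beads, cut with NlaIII, and tags released with MmeI were amplified by PCR and sequenced. The deposited tables give a raw count of tags for each cluster, the copy number of each tag and its CATG site, per the file headers. The deposited TPM values are CPM, the same counts per 1000000 tags the authors kept. The numbers of kept tags were estimated here from the counts and TPM values of abundant clusters (6030092, 6070059 and 5666060 at days 0, 1 and 2). The clusters account for 45.3%, 47.1% and 46.5% of those. The aligner, the mismatches allowed and the genome build were not found in the labels or headers.

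Raw counts were analysed. A cluster took the gene whose GENCODE M21 transcripts (GRCm38) held 80% or more of its matched tags and 50% or more of all its tags on the sense strand. Libraries were scaled by TMM (edgeR 4.0.16), whose factors were 1.03, 0.94 and 1.03. Clusters whose tags summed to at least 15 were tested by the exact binomial test (scipy 1.17.1) with Benjamini-Hochberg adjustment, since edgeR's quasi-likelihood test could not be fitted to 1 library per group. Log2 ratios carry a pseudocount of 0.5 tags. Intervals (Clopper-Pearson, 95%) cover counting error only, and PCR copies cannot be told from molecules. The test was tested on simulated data. The repair genes, the further repair genes and the marker lists were chosen with earlier results of these data known. Named in full are called genes, up to 4 per class with the largest ratios at 30 or more tags, and 22 repair genes listed by name; of the further genes, those called or the 2 largest ratios per class at 30 or more tags. Promoter windows are from RefSeq. Alternatives were other scalings (DESeq2 1.42.0 size factors, kept tags, table totals), filters, pseudocount, tags, sites, fold and an assumed variation. Some repair genes are not reported here.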

Additional observations from a re-analysis of the deposited data

How the results depend on the processing

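No paired analysis was possible because each group is 1 library, and no library could be left out for the same reason. DESeq2 size factors and other filters on tag number moved no call of a repair gene. A pseudocount of 1 was applied to medians only, so its effect on calls was not examined. Scaling by the tags in the tables moved the median of all clusters to -0.15 at day 1 over day 0 and 0.12 at day 2 over day 1. With it, 128 clusters were called higher and 338 lower at day 1 over day 0, 100 were called lower at day 2 over day 1, and 4 further repair genes were called lower at day 1. The nucleotide excision sum was -0.18 at day 1 and 0.18 at day 2 over day 1, and the base excision sum 0.07 and -0.15. In the day 2 over day 1 comparison, Ercc3 joined Xrcc3 among genes called higher (2), 2 further repair genes were called higher, and Lig3 missed the threshold on p (0 lower) at a log2 ratio of -1.30 (adjusted p = 0.0013), as also with kept tags (2, 2 and 0), at -1.31 (adjusted p = 0.001, just above the threshold). These sign changes were all of uncalled ratios: at day 1 over day 0, with table totals, Rad50 -0.09, Atm -0.06, Ddb1 -0.03, Lig3 -0.09 and Timeless -0.10, and with kept tags Rad50 -0.04, Atm -0.01, Lig3 -0.03 and Timeless -0.05. At day 2 over day 1 they were, with table totals, Fanci 0.05, Chek2 0.02, Ddb1 0.03, Ddb2 0.04 and Rad51d 0.01, and with kept tags Fanci 0.03, Chek2 0.01, Ddb1 0.01 and Ddb2 0.02, and Fanca was 0.04 at day 2 over day 0 with kept tags.

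With site 1 alone, Lig3 was lost at day 2 (0 repair genes lower over day 0 and 0 over day 1), 2 further repair genes were higher and 100 clusters lower at day 2 over day 1, and the mismatch sum there was 1.15. Signs then turned at day 1 for Rad50 (-0.05), Chek2 (0.23), Ercc4 (-0.12) and Lig3 (-1.03), at day 2 over day 0 for Fanca (0.10), Chek2 (0.05) and Ercc4 (-0.34), and at day 2 over day 1 for Atm (-0.07), Ercc4 (-0.22), Ddb2 (0.06) and Mbd4 (0.47). With tags that match 1 gene exactly, Rad54l was 0.22 at day 1, Polk -0.72 at day 2 over day 1, and 1 further repair gene was higher at day 2 over day 0. Without the most abundant gene of each class, sums at day 1 over day 0, day 2 over day 0 and day 2 over day 1 were -2.39, -0.60 and 1.79 for mismatch (Pms2 alone) and -0.08, -0.52 and -0.44 for base excision, and for nucleotide excision -0.30 at day 1 over day 0 and 0.30 at day 2 over day 1.

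At a minimum of 1.5-fold, clusters called higher and lower numbered 563 and 511, 788 and 853, and 476 and 430 in the order day 1 over day 0, day 2 over day 0 and day 2 over day 1. Repair genes called higher at day 2 over day 1 were then 2, and further repair genes 2 higher at day 1 and 2 lower at day 2 over day 0. With an assumed coefficient of variation of 0.2, clusters called numbered 16 and 13, 146 and 95, and 57 and 33, with 0.4 they numbered 0 and 0, 5 and 1, and 2 and 0, and under both settings 0 repair genes and 0 further repair genes were called in any comparison. The cause of these changes was not tested, apart from the genes, tags or thresholds each alternative removes. The scaling of the sum of all repair genes and of the intervals of the class sums was added after seeing the data.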
